A study of Mus musculus with 16 samples.

Results

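The 37 genes of the mouse mitochondrial genome were followed through RNA sequencing of thymic double-positive (DP) cells, the stage at which developing T cells carry both CD4 and CD8. They were chosen as every counted gene whose Ensembl identifier maps to a symbol starting with mt-, which gave 13 protein genes, 2 rRNA genes and 22 tRNA genes. They were 37 of the 55335 genes listed for the 10 libraries with an age and 37 of the 54532 genes listed for the 6 libraries without one. The groups were young WT (3 libraries), old WT (4), young METTL3 KO (3), WT with no age stated (3) and METTL3 KO with no age stated (3), all from thymus and sorted by flow cytometry. METTL3 is the methyltransferase that writes N6-methyladenosine on RNA. The labels do not say how or in which cells the gene was deleted, how old the mice were, or whether replicates were separate animals, so the p-values cover the spread among these libraries, which may be technical. Mettl3 itself stood at 65.8, 66.4 and 59.1 CPM (counts per 1000000 gene counts) in young WT and at 62.3, 64.2 and 64.8 in the young libraries labelled METTL3 KO, which overlap. In the set without an age it stood at 52.4, 46.6 and 42.8 in WT and at 34.0, 41.7 and 26.0 in the libraries labelled METTL3 KO, which were all lower. Gene counts do not show which part of Mettl3 a transcript holds.

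The mitochondrial genome is a small circle present in many copies per cell and is read by its own RNA polymerase. Each strand is copied into a long precursor, from which tRNAs are excised and the rRNAs and mRNAs between them are freed. The mRNAs encode core subunits of the respiratory chain complexes I, III and IV and of the ATP synthase (complex V), while complex II and all other subunits are made from nuclear genes. Most genes are read from one strand, here called heavy-strand genes. The others, mt-Nd6 and 8 of the 22 tRNAs, are read in the opposite direction and are called light-strand genes.

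Pieces of mitochondrial DNA also lie in the nuclear chromosomes, where a read from mitochondrial RNA can align as well. A search of the GENCODE transcripts of mm10 with the mitochondrial transcripts found 11 pseudogenes alike in at least 95% of bases over at least 200 bases. On chromosome 1 they form one tract that runs, in reverse, from mt-Co1 to mt-Nd4. It holds Gm29216 (mt-Co1), Gm28661 (mt-Co2), Gm10925 (mt-Atp6), Gm28437 (mt-Co3), Gm28438 (mt-Nd3), Gm10222 (mt-Nd4l) and Gm28439 (mt-Nd4). The 678 aligned bases of Gm10925, the 681 of Gm28661, the 783 of Gm28437, the 294 of Gm10222 and the 876 of Gm28439 were identical to their mitochondrial counterparts. Gm28438 differed from mt-Nd3 by 1 mismatch in 345 bases, and Gm29216 from the end of mt-Co1 by 1 in 483. The other copies were more diverged: Gm13340 on chromosome 2 differed from mt-Co1 by 37 mismatches in 1545 bases. Next to it were Gm13341 (mt-Co2, 16 mismatches) and Gm13339 (mt-Nd2, 17 mismatches), and on chromosome 13 Gm4076 (mt-Nd5, 45 mismatches).

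Stretches of 3 such pairs are printed because the pairs differ in how far a read could tell gene and copy apart: not at all, at 1 base, or at several. Each is read 5′ to 3′ along the transcript, on the plus strand of the mitochondrial genome and the minus strand of the nuclear chromosome (mm10), and capitals mark bases that differ within the pair. The mt-Atp6 stretch (chrM:8221-8310) and its copy (chr1:24614268-24614357) have no difference:
mt-Atp6: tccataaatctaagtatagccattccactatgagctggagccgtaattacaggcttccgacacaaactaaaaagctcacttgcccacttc
Gm10925: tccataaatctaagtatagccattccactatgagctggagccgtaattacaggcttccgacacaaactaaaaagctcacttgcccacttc
The mt-Nd3 stretch (chrM:9459-9548) and its copy (chr1:24613030-24613119) hold the 1 mismatch of that pair:
mt-Nd3: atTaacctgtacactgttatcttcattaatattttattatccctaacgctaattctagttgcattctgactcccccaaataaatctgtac
Gm28438: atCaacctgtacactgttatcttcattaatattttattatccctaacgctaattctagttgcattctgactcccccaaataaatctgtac
The mt-Co1 stretch (chrM:5492-5611) and its copy (chr2:22589364-22589483) differ at 2 of 120 bases:
mt-Co1: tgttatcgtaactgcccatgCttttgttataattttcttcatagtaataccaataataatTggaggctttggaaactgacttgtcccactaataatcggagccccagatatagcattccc
Gm13340: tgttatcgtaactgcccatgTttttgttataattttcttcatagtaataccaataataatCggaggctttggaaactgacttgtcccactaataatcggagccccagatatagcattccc
The best-counted tRNAs are short transcripts of the light strand, and they are shown because one was counted in the libraries with an age alone (mt-Ts1) and the other in all 16 (mt-Tp). They are mt-Ts1, a serine tRNA at chrM:6870-6938 that overlaps the end of mt-Co1, and mt-Tp, the proline tRNA at chrM:15356-15422, both read from the minus strand:
mt-Ts1: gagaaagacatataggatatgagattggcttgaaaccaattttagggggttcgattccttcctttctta
mt-Tp: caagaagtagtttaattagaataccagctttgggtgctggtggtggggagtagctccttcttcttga

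Per library, the counts on genes totalled 9781368 to 10307780 where an age is stated, 15927134 to 16167074 in WT without an age and 10575795 to 13740694 in METTL3 KO without an age. Entries outside genes made up 47.5% to 51.2% of all entries in the libraries with an age. In those without, they made up 7.23% to 7.60% in WT and 11.8% to 15.0% in METTL3 KO, and 50.5% to 52.2% were not aligned. The 2 sets were therefore tested only through differences within each. Where their levels are set side by side, this is description without a test. Markers of DP cells were present in every library: Cd8a lay between 2134 and 3045 CPM and Cd4 between 820.5 and 1663. Old WT library 3 stood apart in the levels of mitochondrial genes, and results that rest on it are given with and without it.

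The mitochondrial genes differed widely in level. Count density, the CPM per kilobase of gene (group mean), was highest for mt-Co1, the catalytic subunit of cytochrome c oxidase (complex IV), at 8065 in young WT. Next came mt-Cytb, the only mitochondrially encoded subunit of complex III, at 3418. The complex I subunits mt-Nd1 (1910), mt-Nd2 (1014), mt-Nd4 (973) and mt-Nd5 (959) followed. The light-strand gene mt-Nd6, also of complex I, was at 613. The rRNAs of the mitochondrial ribosome were lower than these per kilobase, at 761 for mt-Rnr2 (large subunit) and 372 for mt-Rnr1 (small subunit), except that mt-Rnr2 was above mt-Nd6. The sources used here do not give whether RNA was selected by its poly(A) tail or by removal of rRNA.

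Of the 13 protein genes, 6 were counted far below their neighbours. In young WT the densities were 84.3 for mt-Co2 and 49.8 for mt-Co3, the other mitochondrially encoded subunits of complex IV. They were 65.3 for mt-Atp6 and 0.49 for mt-Atp8, the subunits of ATP synthase. The complex I subunits mt-Nd3 (3.24) and mt-Nd4l (2.45) were also among them. Relative to mt-Cytb these densities were 2.47% for mt-Co2, 1.91% for mt-Atp6, 1.46% for mt-Co3, 0.0949% for mt-Nd3, 0.0718% for mt-Nd4l and 0.0143% for mt-Atp8, against 28.0% to 55.9% for mt-Nd1, mt-Nd2, mt-Nd4 and mt-Nd5. For 5 of the 6, between 98.3% and 99.9% of the gene lay in exact matches of at least 200 bases to the tract on chromosome 1; for mt-Atp8 no copied transcript was found, but the search covered annotated transcripts only, and the stretch of the tract between Gm28661 (mt-Co2) and Gm10925 (mt-Atp6), where mt-Atp8 would lie, was not searched. mt-Nd4, with 63.6% in such matches, and mt-Co1, with 31.0%, kept high counts. Read length and the treatment of reads with more than one best place are unknown here, and the part of the copies in these levels was not tested.

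**Figure D1:**
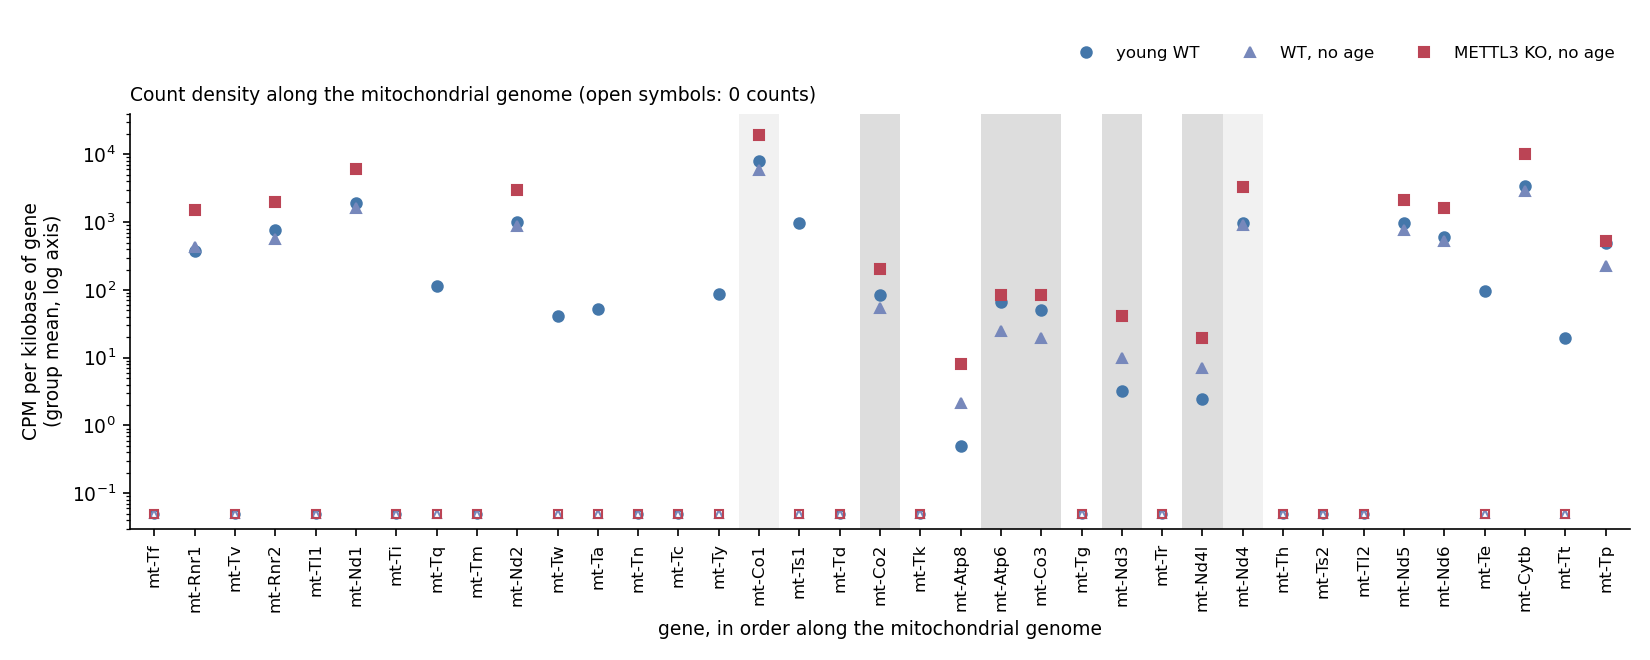
Group mean CPM per kilobase of gene (log axis) for the 37 mitochondrial genes in their order along the genome, in young WT (circles), WT without an age (triangles) and METTL3 KO without an age (squares). Dark bands mark the 5 genes almost wholly identical to a nuclear tract and pale bands the 2 that are so in part; open symbols at the bottom are 0 counts, which hold for most tRNAs.

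Reads were also counted on the pseudogenes. Gm10925 had 443, 577 and 817 counts in young WT, where mt-Atp6, identical to it, had 223, 250 and 865. The pseudogene thus had more counts than the gene in 2 of these 3 libraries. Gm13340, with 37 mismatches, had 34, 47 and 52 counts against 107610, 126469 and 141562 for mt-Co1. The 11 copies together had 0.439% to 0.636% as many counts as the 37 mitochondrial genes across the 16 libraries. Levels of mt-Co2, mt-Atp6, mt-Co3, mt-Nd3 and mt-Nd4l are therefore uncertain, and so are those of their copies.

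Protein genes held 91.3% to 94.1% of mitochondrial counts in the 16 libraries and rRNAs 5.52% to 8.65%. Of the 22 tRNAs, 8 had counts in every library with an age, and a ninth (mt-Tc) had 1 count in a single library. These 8 were mt-Tq (glutamine), mt-Tw (tryptophan), mt-Ta (alanine), mt-Ty (tyrosine), mt-Ts1, mt-Te (glutamate), mt-Tt (threonine) and mt-Tp, of which all but mt-Tw and mt-Tt are light-strand genes. mt-Ts1 had the most, with 550, 671 and 830 counts in young WT, then mt-Tp with 254, 345 and 387. In the libraries without an age mt-Tp alone was counted, with 236, 168 and 321 in WT and 493, 283 and 515 in METTL3 KO, and the other 21 tRNAs had 0. A count of 0 in these libraries allows up to 3 counts, while mt-Ts1 had 546 or more in each library with an age. This contrast of the 2 sets is a description without a test. The reason was not tested. Light-strand genes held 1.29% to 1.97% of mitochondrial counts. How the counting treated strand is not given in the sources used here, so counts on mt-Nd6 and the light-strand tRNAs cannot be told apart from RNA of the opposite strand.

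The mitochondrial share of gene counts was 1.99, 2.53 and 2.84% in the 3 young WT libraries. In old WT it was 2.29, 2.05, 9.59 and 1.98%, and in young METTL3 KO 2.34, 2.56 and 2.28%. In the set without an age it was 1.59, 1.67 and 2.48% in WT and 9.26, 4.55 and 5.45% in METTL3 KO. The share was thus high in 4 libraries, all METTL3 KO libraries without an age and old WT library 3, and between 1.59% and 2.84% in the other 12.

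**Figure D2:**
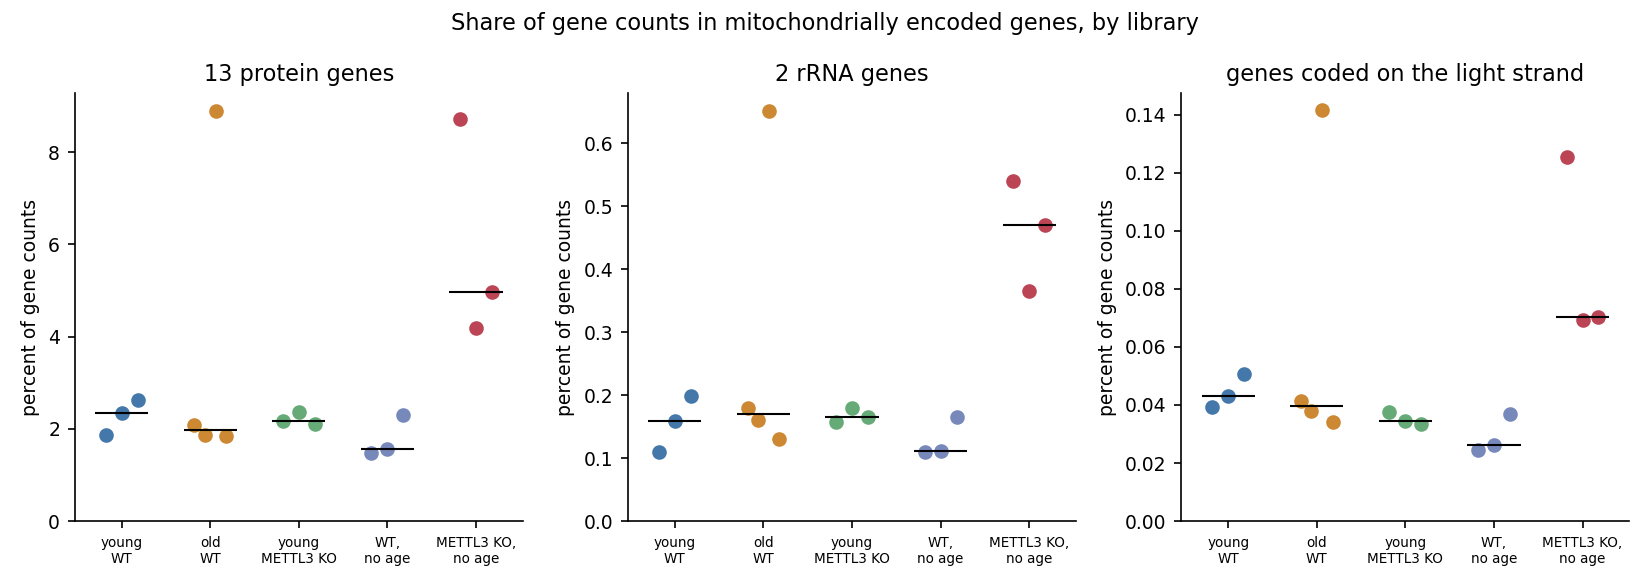
Percent of gene counts that fell on the 13 protein genes, the 2 rRNA genes and the light-strand genes, by group; points are libraries and lines group medians. Old WT library 3 and the METTL3 KO libraries without an age lie above all others in each panel.

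Old WT and young WT were compared to ask whether mitochondrial transcripts differ with age. The mitochondrial share was 1.27-fold higher in old WT (geometric means; exact permutation test, two-sided, p = 0.943), and 0.866-fold without old WT library 3 (p = 0.3). No mitochondrial gene passed the test: 0 of 21 tested were called by edgeR's quasi-likelihood test with Benjamini-Hochberg adjustment (threshold 0.05), where 0.253% of all 14228 genes were. None had an unadjusted p under 0.05 by edgeR, where 12.1% of all genes did, and 1 did by DESeq2, which called 0 (1.08% of all genes). The fitted differences were above 0 for 20 of 21, with a median of 0.64 (log2) against 0.0063 over all genes tested, yet no mitochondrial gene had groups that did not overlap (5.65% of all genes were higher and 4.13% lower in every old WT library). Without old WT library 3 the picture turned: 4 of 21 differences were above 0, the median was -0.20, 5 had an unadjusted p under 0.05 (10.8% of all genes did), and 0 were called (0.304% of all genes were).

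Old WT library 3 carried the pooled differences. mt-Co1 was at 10474, 12674 and 14261 CPM (scaled by TMM, as all CPM of mitochondrial genes below) in young WT and at 10878, 10690, 53633 and 9974 in old WT, a log2 difference of 0.77 ± 0.63 (SE; adjusted p = 0.657, edgeR). mt-Cytb was at 3209, 3948 and 4584 and 3671, 2983, 16018 and 3012 CPM, a difference of 0.71 ± 0.62. In both genes 3 of 4 old WT libraries lay within or below the young range. mt-Rnr1 gave the smallest p of the 21, at 284, 347 and 436 CPM in young and 545, 479, 2313 and 382 in old WT (1.39 ± 0.65; adjusted p = 0.437, edgeR). Its partner mt-Rnr2 differed by 0.69 ± 0.58. The complex I genes differed by 0.61 (mt-Nd1), 0.48 (mt-Nd2), 0.65 (mt-Nd3), 0.77 (mt-Nd4), 0.64 (mt-Nd5) and 0.56 (mt-Nd6), all with adjusted p of 0.654 or more (edgeR), and mt-Nd4l was too low to be tested, as was mt-Atp8. The complex IV genes mt-Co2 and mt-Co3 differed by 0.85 ± 0.61 and 1.81 ± 1.22, and the complex V gene mt-Atp6 by 0.094 ± 0.79. mt-Co3 had 344, 254, 4310 and 286 counts in old WT, so that its estimate rested on library 3.

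Genes did not stand at the same multiple in old WT library 3. Against the mean of the other 3 old WT libraries, the protein genes without a long exact copy and the rRNAs stood between 3.69-fold (mt-Nd2) and 5.1-fold (mt-Co1, which is copied in part). mt-Co3 was at 16.1-fold. The tRNAs were at 4.1-fold for mt-Tp, 3.37-fold for mt-Tt, 3.22-fold for mt-Ts1, 2.47-fold for mt-Tq and 1.01-fold for mt-Te. mt-Tw, mt-Ty and mt-Ta lay between 2.04-fold and 2.17-fold. mt-Te, with 109, 77, 68 and 36 counts in the old WT libraries, was therefore not high where the rest of the mitochondrial genome was. Other values moved in this library as well: entries not uniquely aligned were 22.1% of gene counts there against 10.4% to 12.7% in the other libraries with an age. The summed level of 11 myeloid markers was 264.5 CPM against 39.1 to 42.1 in the other old WT libraries. That of 9 dendritic markers was 865.2 against 57.1 to 132.0, that of 11 B cell markers 2037 against 498.1 to 1006, and that of 10 DP markers 14805 against 17270 to 19529.5. That of 9 mature single-positive markers was 405.9 against 224.2 to 257.5, and that of 6 erythroid markers 45.2 against 1.59 to 6.81. Of these lists no gene was called in old against young WT. Their part in the mitochondrial values was not tested, and in bulk RNA a change in the number of cells of a type cannot be told apart from a change in RNA per cell.

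Tests without library 3 gave other values. mt-Rnr1 was 0.40 ± 0.15 higher in old WT (adjusted p = 0.369, edgeR), the one of the 5 genes with an unadjusted p under 0.05 that was above 0. mt-Nd6 (-0.30 ± 0.11), mt-Nd1 (-0.29 ± 0.13), mt-Cytb (-0.28 ± 0.13) and mt-Ta (-0.54 ± 0.25) were the other 4, and mt-Co1 was at -0.24 ± 0.12. All of their adjusted p-values lay between 0.327 and 0.486.

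**Figure D3:**
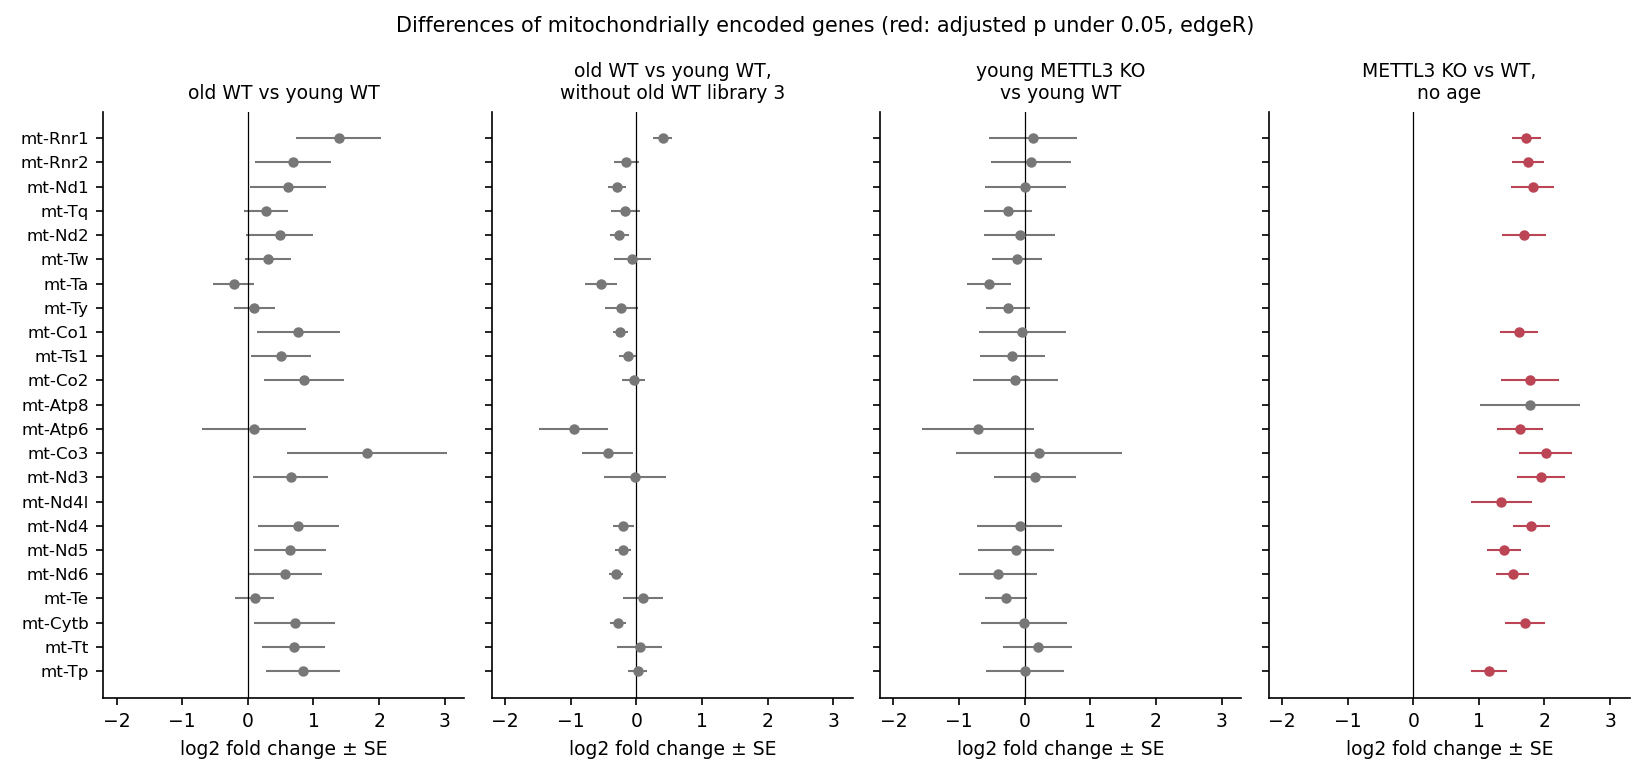
Log2 fold change ± SE (edgeR) of each mitochondrial gene tested, in genome order, for old against young WT with and without old WT library 3, young METTL3 KO against young WT, and METTL3 KO against WT without an age. Red marks adjusted p under 0.05, which 15 genes reached, all in the last panel; 20 of 21 age differences are above 0 with old WT library 3 and 4 of 21 without it.

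Within the mitochondrial counts the share of 1 gene, mt-Rnr1, did not overlap between old and young WT, while the shares of the other genes compared did. Composition was taken over 9 genes with ample counts and at most partial exact copies (mt-Rnr1, mt-Rnr2, mt-Nd1, mt-Nd2, mt-Co1, mt-Nd4, mt-Nd5, mt-Nd6 and mt-Cytb), as each gene's percent of their sum. mt-Rnr1, the small subunit rRNA, made up 1.44, 1.4 and 1.54% in young WT, 1.59, 1.61 and 1.73% in young METTL3 KO and 2.45, 2.36, 2.32 and 1.99% in old WT. All 4 old WT libraries were above all 6 young ones, library 3 among them and not the highest. The old WT mean was 2.28% ± 0.20 (SD, n = 4) against 1.46% ± 0.075 (SD, n = 3) in young WT, 1.56-fold higher (geometric means; exact permutation test, two-sided, p = 0.0286, the smallest that 4 against 3 can give; adjusted p = 0.771 over 27 comparisons). Without library 3 it was 1.54-fold higher, with the smallest p that 3 against 3 can give (exact permutation, p = 0.1). After adjustment the difference does not pass the threshold. With these smallest p-values no share could pass it over 27 comparisons, so the adjusted p-value cannot decide whether the share differs. In an edgeR fit scaled to the summed mitochondrial counts, mt-Rnr1 was 0.64 ± 0.58 (log2) higher in old WT (unadjusted p = 0.269, edgeR). That fit called 0 of 21 mitochondrial genes. Its spread was estimated with all 14228 genes tested, nuclear ones included. The SE was much the same for mt-Co1 (0.56) and mt-Cytb (0.57) as for mt-Rnr1, so this fit cannot decide whether composition differs.

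mt-Rnr1 counts were also higher in old WT relative to the other rRNA, which is cut from the same precursor. The ratio of mt-Rnr1 to mt-Rnr2 counts was 0.348, 0.283 and 0.277 in young WT and 0.303, 0.294 and 0.31 in young METTL3 KO. In old WT it was 0.446, 0.424, 0.509 and 0.427, 1.50-fold higher than in young WT and with no overlap (exact permutation, p = 0.0286; without library 3, 1.44-fold and p = 0.1). This ratio was looked at after the composition had been seen and is a description of the same counts. The share of mt-Rnr2 overlapped between old and young WT (5.48, 5.56, 4.56 and 4.65% against 4.13, 4.94 and 5.58%). So did those of the 7 protein genes, for which the old WT to young WT ratio of geometric means lay between 0.918 (mt-Nd6) and 1.02 (mt-Nd4). In the set without an age the ratio of mt-Rnr1 to mt-Rnr2 varied within groups as much as it did between ages, from 0.398 to 0.588 in WT and from 0.376 to 0.572 in METTL3 KO.

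**Figure D4:**
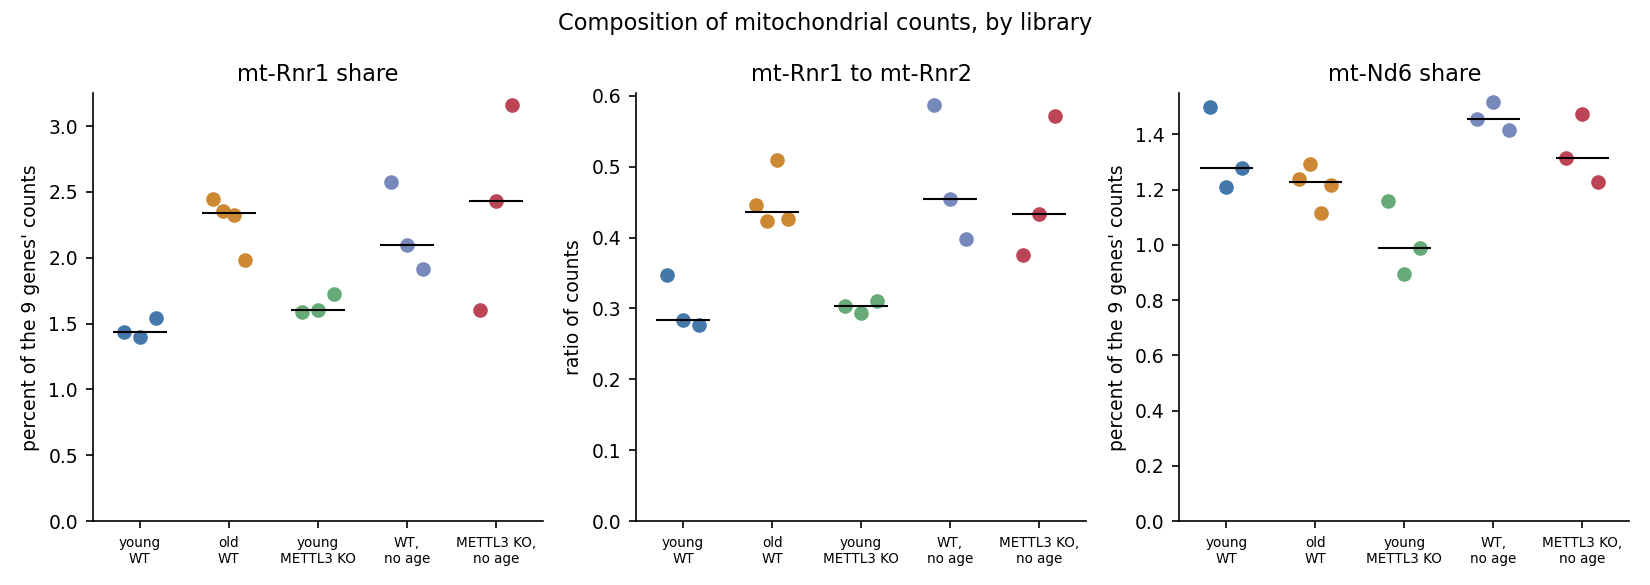
mt-Rnr1 as percent of the counts of 9 mitochondrial genes, the ratio of mt-Rnr1 to mt-Rnr2 counts, and mt-Nd6 as percent of the 9 genes, by group; points are libraries and lines group medians. All old WT libraries lie above all young libraries in the first and second panels, and young METTL3 KO lies below young WT in the third.

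Young METTL3 KO libraries were compared with young WT to ask whether mitochondrial transcripts differ with METTL3 genotype in young mice. The share differed 0.987-fold (exact permutation test, two-sided, p = 1). No gene passed the test: 0 of 21 mitochondrial genes were called by edgeR, where 0.0% of all genes were, none had an unadjusted p under 0.05 by edgeR or DESeq2 (88 of 14228 genes, 0.618%, did by edgeR), and DESeq2 called 0. The median difference was -0.079 (log2), with 7 of 21 above 0, against -0.00055 over all genes. mt-Co1 was at 11944, 13248 and 11338 CPM against 10474, 12674 and 14261 in young WT (-0.034 ± 0.66, adjusted p = 1, edgeR). This fit takes its spread from all 10 libraries, old WT library 3 included. With only the groups compared in the fit, 521 of 13780 genes had an unadjusted p under 0.05 by edgeR, and again 0 genes were called. The low number of unadjusted hits thus depends in part on the shared spread. In the fit of all 10 libraries mt-Cytb was at -0.014, mt-Co2 at -0.15, mt-Co3 at 0.21 and mt-Atp6 at -0.71. The rRNAs were at 0.13 (mt-Rnr1) and 0.092 (mt-Rnr2). Among complex I genes the differences were 0.0093 (mt-Nd1), -0.076 (mt-Nd2), 0.15 (mt-Nd3), -0.079 (mt-Nd4), -0.13 (mt-Nd5) and -0.41 (mt-Nd6), and mt-Nd4l and mt-Atp8 were not tested. For mt-Atp6 the value follows 1 library, since young WT library 3 had 87.1 CPM and the other 5 libraries between 21.7 and 29.9.

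mt-Nd6 was the 1 gene of 21 whose young groups did not overlap (log2 difference -0.41 ± 0.59). Among all genes 4.71% were lower and 4.55% higher in every young METTL3 KO library, so 1 of 21 is near that share. mt-Nd6 was at 268, 228 and 222 CPM in young METTL3 KO and 296, 299 and 360.1 in young WT. Its share of the 9 genes was 1.16, 0.893 and 0.989% against 1.5, 1.21 and 1.28%, 0.762-fold (exact permutation, p = 0.1, the smallest that 3 against 3 can give; adjusted p = 0.831). mt-Rnr1 also had no overlap in share between these groups (1.12-fold in young METTL3 KO, same p). The light-strand tRNAs with counts gave log2 differences of -0.54 (mt-Ta), -0.28 (mt-Te), -0.25 (mt-Tq), -0.25 (mt-Ty), -0.19 (mt-Ts1) and 0.0018 (mt-Tp). The heavy-strand mt-Tw and mt-Tt were at -0.11 and 0.19. None of these passed the test.

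METTL3 KO and WT libraries without an age were compared for the same question, with the ages of the mice unknown. Here the mitochondrial genes rose together: 15 of the 16 tested were higher in METTL3 KO by edgeR's test, where 29.9% of all 16432 genes were called higher and 53.9% in either direction. DESeq2 also called 15 (54.7% of all genes in either direction). The median difference of the 16 was 1.72 (log2) against 0.079 over all genes tested. In 15 of 16 every METTL3 KO library was above every WT library, as was so for 34.3% of all genes. The share of all gene counts was 3.27-fold higher (exact permutation, two-sided, p = 0.1, the smallest that 3 against 3 can give). The smallest METTL3 KO share, 4.55%, was above the largest in WT, 2.48%.

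Genes of complexes I, III, IV and V were among those that rose. Of complex I, mt-Nd1 was at 1270, 1493 and 2000 CPM in WT and 8883, 3404 and 4527 in METTL3 KO, a rise of 1.82 ± 0.32 (log2; adjusted p = 0.000865, edgeR). mt-Nd4 rose from 1102, 1159 and 1601 to 6509, 2870 and 4059 CPM (1.80 ± 0.28) and mt-Nd5 from 1202, 1258 and 1905 to 5303, 3087 and 3032 (1.39 ± 0.26). METTL3 KO library 1 was the highest of the 3 in each. mt-Nd2 (1.69 ± 0.33), mt-Nd3 (1.95 ± 0.37) and the light-strand mt-Nd6 (1.52 ± 0.25) rose as well. mt-Nd4l rose by 1.34 ± 0.46 (adjusted p = 0.0282), a call lost when WT library 1 or 2 or METTL3 KO library 1 was left out; without the last the difference was 0.68.

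Of complex III, mt-Cytb rose from 2851, 3019 and 4344 CPM to 16595, 6875 and 9894, by 1.71 ± 0.30 (log2; adjusted p = 0.000888, edgeR). Of complex IV, mt-Co1 rose from 7948, 7756 and 12683 to 39856, 19878 and 26691 CPM, by 1.61 ± 0.29 (adjusted p = 0.000972). mt-Co3 rose by 2.02 ± 0.40 and mt-Co2 by 1.78 ± 0.45, the latter a call lost without WT library 1, without METTL3 KO library 3 and with no filter on low counts. Without METTL3 KO library 1 the differences were 1.34 for mt-Co3 and 1.19 for mt-Co2, both still called. Of complex V, mt-Atp6 rose by 1.63 ± 0.35 (adjusted p = 0.00239). mt-Atp8 was the one gene that did not pass (1.78 ± 0.76, adjusted p = 0.0672), at 13, 3 and 5 counts in WT and 36, 8 and 14 in METTL3 KO.

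Both rRNAs rose. mt-Rnr1 went from 424, 354 and 497 CPM to 1414, 1021 and 1778 (1.72 ± 0.22, adjusted p = 0.000159, edgeR), and mt-Rnr2 from 721, 779 and 1249 to 3762, 2358 and 3112 (1.75 ± 0.25). mt-Tp, the one tRNA counted in this set, rose least, from 15.4, 10.7 and 20.9 CPM to 40.7, 24.8 and 38.9 (1.15 ± 0.27, adjusted p = 0.00419). METTL3 KO library 3 was the highest for mt-Rnr1 and library 1 for most protein genes, so the libraries differed in make-up. No share of the 9 genes separated the groups without an age: the ratios of METTL3 KO to WT lay between 0.842 (mt-Nd5) and 1.11 (mt-Rnr2), with adjusted exact permutation p-values of 0.831 or more.

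The nuclear copies moved with their mitochondrial counterparts. Of the 8 copies tested, 7 were called higher by edgeR, where 29.9% of all genes were. Their differences ran from 1.53 for Gm13340 to 2.55 (log2) for Gm28438. Gm10222 did not pass (1.27 ± 0.56, adjusted p = 0.0746). Adding the copies' counts to the mitochondrial ones left the log2 difference in share at 1.71. The stretches printed above show that Gm10925 and mt-Atp6 hold the same letters there.

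The differences between METTL3 KO and WT in the 2 sets were unequal by their own test. In a fit of both sets with an interaction of genotype and set, 14 of 15 mitochondrial genes had a larger difference without an age than in young mice (adjusted p under 0.05, edgeR), where 36.9% of all genes were called and 19.2% in this direction. The excess was 1.81 ± 0.32 (log2) for mt-Co1 (adjusted p = 0.00071), 2.10 ± 0.30 for mt-Nd6 (adjusted p = 0.000149) and 1.76 ± 0.26 for mt-Rnr1 (adjusted p = 0.000185). mt-Nd4l did not pass (1.52 ± 0.74, adjusted p = 0.12). With any 1 library left out, 10 to 13 genes were called, the fewest without young WT library 3. The sets also differ in their alignment and in the share of reads outside genes, which cannot be told apart from the set here.

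Several other values moved with the mitochondrial rise. Entries not uniquely aligned were 12.7, 8.25 and 10.7% of gene counts in METTL3 KO against 5.2, 5.37 and 5.82% in WT without an age. Entries outside genes were 13.3, 15.0 and 11.8% of all entries in METTL3 KO against 7.59, 7.23 and 7.60% in WT. Counts on genes were 27.5, 27.3 and 29.5% of all entries against 37.0, 37.3 and 37.0%. The summed level of 10 DP markers was 10918 to 13269 CPM against 19228 to 20457, and Rag1, the recombinase gene that marks DP cells, was at 1254, 1157 and 923 CPM against 6068, 4935 and 5929. Of all 16432 genes tested 29.9% were called higher and 24.0% lower. Of the DP list 6 of 10 were called lower and 0 higher. Of 9 dendritic markers 8 were called higher (summed level 121.8 to 220.2 CPM against 37.4 to 65.9), of 11 B cell markers 9 (809.9 to 1130 against 515.1 to 603.3) and of 10 myeloid markers tested 3 (38.4 to 52.1 against 18.7 to 27.8). Of 8 mature single-positive markers tested none were called higher and 1 lower, with a summed level of 136.7 to 185.0 CPM against 233.3 to 288.9. Of 5 NK and gamma-delta T cell markers tested 2 were higher, of 3 epithelial markers 1 was higher, and of 2 erythroid markers 1 was lower. Of 4 nuclear retained RNAs tested 3 were called higher. Malat1, also of that list, was at 183, 626 and 122 CPM against 363, 367 and 721, which overlap. The myeloid list, at 3 of 10, lay near the share of all genes called higher. The NK and gamma-delta, epithelial and erythroid lists hold too few tested genes to be set against these shares. The part of these values in the mitochondrial rise was not tested.

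The nuclear genes that build and serve the mitochondrion did not follow the mitochondrial ones. The 76 nuclear subunits of complexes I to V had a median difference of 0.23 (log2) in METTL3 KO without an age, with 8 called higher and 9 lower (29.9% and 24.0% of all genes), against 12 higher and 0 lower of the 13 mitochondrial protein genes. Complex I had 5 of 36 higher and 1 lower. Examples are Ndufa5 at 0.91 ± 0.26 and Ndufa11 at 0.72 ± 0.24, the latter a call lost under several alternatives, and Ndufa9 at -0.76 ± 0.18 (adjusted p = 0.0046, edgeR). Complex II, which has no mitochondrially encoded subunit, had 2 of 4 lower: Sdha, its flavoprotein, at -0.76 ± 0.15 and Sdhc at -0.43 ± 0.16, with Sdhb at -0.33 ± 0.22. Complex III had 1 of 9 higher (Cyc1, cytochrome c1, 0.52 ± 0.17) and 2 lower (Uqcrc2, -1.16 ± 0.17, and Uqcrfs1, -0.54 ± 0.19). Complex IV had 1 of 12 lower (Cox5a, -0.72 ± 0.22), with Cox5b at 0.53 ± 0.30 and Cox6c at 0.28 ± 0.19. Complex V had 2 of 15 higher, Atp5o (1.13 ± 0.32) among them, and 3 lower, among them Atp5a1 (-0.79 ± 0.15) and Atp5c1 (-0.64 ± 0.17), which belong to the catalytic F1 part.

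**Figure D5:**
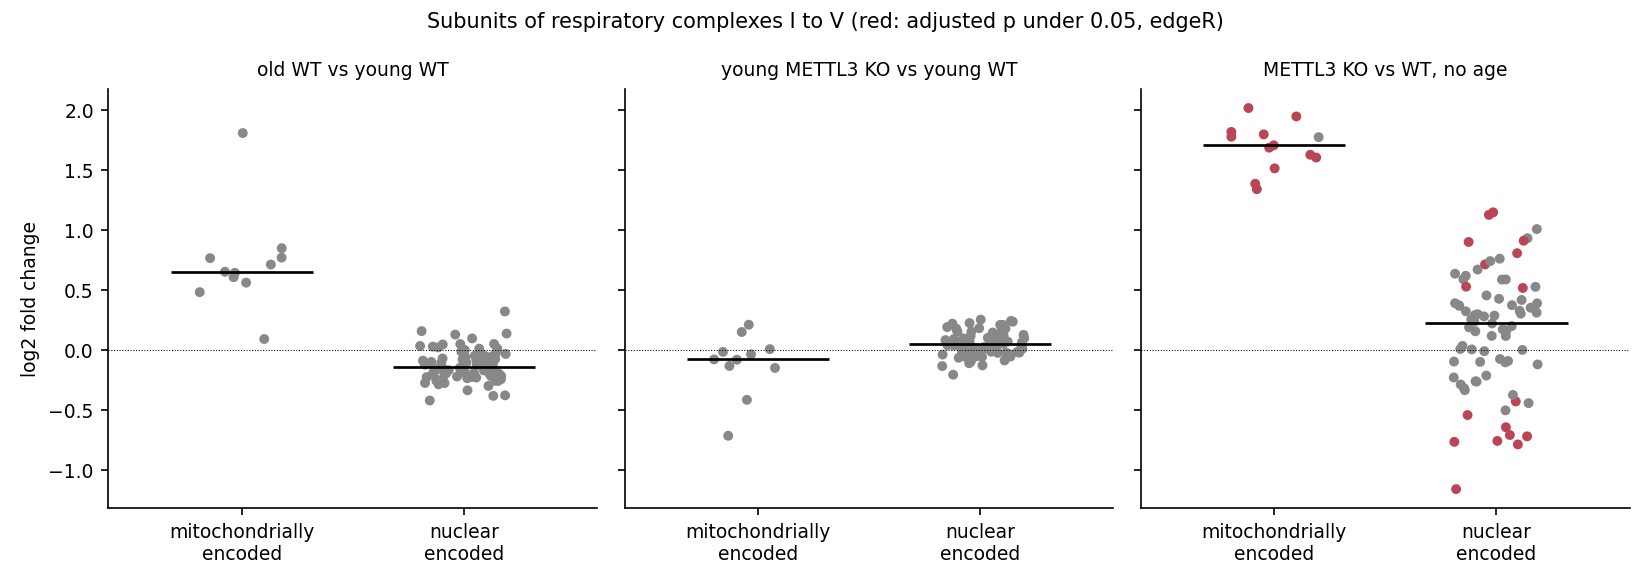
Log2 fold change (edgeR) of the mitochondrially encoded and nuclear encoded subunits of complexes I to V in 3 comparisons; points are genes, lines medians, and red marks adjusted p under 0.05. In METTL3 KO against WT without an age the mitochondrial genes lie between 1.34 and 2.02 and the nuclear ones between -1.16 and 1.15.

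Genes that copy, read and process mitochondrial DNA and RNA were called in both directions in METTL3 KO without an age. Over all genes tested 29.9% were called higher and 24.0% lower, so calls in both directions are common there. Of 12 genes of mitochondrial DNA replication 3 were called higher and 2 lower. Among them were Tk2 (mitochondrial thymidine kinase, 0.81 ± 0.17), Ssbp1 (single-strand binding protein, 0.81 ± 0.17) and Lig3 (DNA ligase, -1.51 ± 0.20). Of 10 genes on the list for mitochondrial transcription 2 were higher, Tfb1m (0.92 ± 0.26) and Mterf1b (0.80 ± 0.30), and 0 lower. Tfb2m, the initiation factor, stood at -0.59 ± 0.24 (adjusted p = 0.051, edgeR). Of 16 RNA processing and stability genes 3 were higher and 5 lower, with Fastk at 0.70 ± 0.15, the RNase P subunit Trmt10c at -0.82 ± 0.19 and Trnt1, which adds CCA to tRNA ends, at -0.83 ± 0.20. Of 19 translation factors 1 was higher (Trmu, a tRNA-modifying enzyme, 0.97 ± 0.20) and 2 lower (Gfm1, an elongation factor, -1.09 ± 0.19, and Taco1, -1.06 ± 0.26).

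Of the 78 mitochondrial ribosomal protein genes tested 12 were higher and 5 lower (median 0.19 on the log2 scale). Both counts lie below the shares of all genes tested, 29.9% higher and 24.0% lower, which also apply to the lists below. In the large subunit Mrpl28 (1.10 ± 0.21) and Mrpl4 (0.59 ± 0.16) rose and Mrpl3 (-0.59 ± 0.15) fell. In the small subunit Mrps26 (0.88 ± 0.25) and Mrps15 (0.90 ± 0.26) rose and Mrps2 (-0.89 ± 0.18) fell. Of 7 regulators of mitochondrial biogenesis Esrra, a nuclear receptor, rose (1.35 ± 0.22) and 3 fell, Gabpa (-1.19 ± 0.17) and Yy1 (-0.86 ± 0.15) among them. Of 11 proteases and chaperones 3 rose, among them Clpp (1.24 ± 0.20) and Spg7 (0.72 ± 0.16), and 3 fell, among them Yme1l1 (-0.96 ± 0.17). Of 12 genes of mitophagy and dynamics 5 fell, among them the fission factor Mff (-0.81 ± 0.16) and the fusion GTPase Opa1 (-0.77 ± 0.17).

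In the libraries with an age none of these nuclear lists held a called gene in either comparison. For age the 76 complex subunits had a median of -0.14 (log2), with 14 above 0 in old WT. Those with the smallest p in their complexes were Ndufb11 (-0.30 ± 0.11), Sdhb (-0.20 ± 0.13), Uqcrc2 (-0.24 ± 0.089), Cox7c (-0.38 ± 0.14) and Atp5b (-0.22 ± 0.089), with adjusted p-values of 0.33 or more. The 78 ribosomal protein genes had a median of -0.067, with Mrpl48 at -0.28 ± 0.098 and Ptcd3 at -0.22 ± 0.077. The RNA-binding protein Fastkd2, which acts on mitochondrial rRNA and ribosome assembly, was at -0.40 ± 0.11 (adjusted p = 0.242, edgeR). Tk2 was at 0.39 ± 0.21, Tfb1m at -0.34 ± 0.24, Mettl17 at 0.33 ± 0.14, Tfe3 at 0.62 ± 0.18, Yme1l1 at -0.23 ± 0.086 and Mff at -0.19 ± 0.10. For young METTL3 KO the medians were 0.053 for the complex subunits and 0.048 for the ribosomal proteins, and adjusted p-values were 1. The genes with the smallest p in their lists included Ndufa6 (0.24 ± 0.15), Cox7a2 (0.24 ± 0.15), Tefm (0.26 ± 0.20), Trmt10c (0.15 ± 0.11) and Mrpl57 (0.28 ± 0.15). The age and young METTL3 KO comparisons share the young WT libraries.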

How the data were processed

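RNA of sorted thymic cells was sequenced in 16 libraries; reads were aligned by the authors with HISAT2 2.0.5 to mm10, per the submitters' processing notes. The deposited files hold raw read counts per gene, with 5 closing summary entries that were kept out of library sizes. The sources used here name no counting program, annotation or strand setting. The members and lists were chosen with earlier results of these data known.

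Counts were tested in edgeR 4.0.16 (R 4.3.3, limma 3.58.1): filterByExpr, TMM scaling, robust quasi-likelihood fits, Benjamini-Hochberg adjustment over all genes tested, threshold 0.05, two-sided. The 10 libraries with an age shared 1 fit, the other 6 another, and the interaction used 12 libraries; 7 tRNAs at 0 in every library without an age were left out of the interaction. Shares were compared by exact permutation of log2 values over libraries. The smallest p is 0.0286 for 4 against 3 and 0.1 for 3 against 3, so no composition share could pass 0.05 after adjustment. Composition and ratios were added after the data were seen. Copies were sought with BLAST 2.17.0 in the GENCODE M21 transcripts (mm10), in place of a genome, with coordinates and sequences from the same release. All protein and rRNA genes are named, tRNAs with at least 10 counts per library on average, copies found by the search, and from each nuclear list the 3 tested genes lowest in p or fewer, of which 1 is not reported here. Alternatives were DESeq2 1.42.0 and its size factors, limma-voom, library size alone, scaling without mitochondrial genes, other filters, a replicate block, only the groups compared, and each library left out. The procedure was tested on simulated data. Python 3.11.15, pandas 2.3.3 and matplotlib 3.10.9 prepared tables and figures.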

Additional observations from a re-analysis of the deposited data

Results flagged for a closer look

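In old WT, library 3 stood so far above the other 3 that its gap to the nearest of them, divided by the group's range, passed Dixon's 95% critical value for 4 samples. This gap was 0.959 for the mitochondrial share of gene counts. For CPM it was 0.916 for mt-Rnr1, 0.911 for mt-Rnr2, 0.938 for mt-Nd1, 0.911 for mt-Nd2, 0.926 for mt-Nd4, 0.97 for mt-Nd5, 0.952 for mt-Nd6 and 0.947 for mt-Cytb. It was 0.979 for mt-Co1, 0.886 for mt-Co2, 0.981 for mt-Co3 and 0.968 for mt-Atp6, and among tRNAs 0.856 for mt-Tq, 0.853 for mt-Ta, 0.907 for mt-Ts1 and 0.932 for mt-Tp. Chance flags about 1 in 20 groups, and these genes share the 1 library.

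The difference between METTL3 KO and WT was larger without an age than in young mice, by the interaction test (edgeR, adjusted p under 0.05), for 14 genes. The excess on the log2 scale was 2.10 for mt-Nd6, 1.76 for mt-Rnr1, 1.83 for mt-Rnr2, 1.98 for mt-Nd1, 1.94 for mt-Nd2, 1.97 for mt-Nd3, 2.05 for mt-Nd4, 1.69 for mt-Nd5 and 1.89 for mt-Cytb. It was 1.81 for mt-Co1, 2.10 for mt-Co2, 1.98 for mt-Co3, 2.52 for mt-Atp6 and 1.32 for mt-Tp. The calls of mt-Co2, mt-Co3, mt-Atp6, mt-Nd3 and mt-Tp were lost when some single libraries were left out. Without METTL3 KO library 1 the excess was 1.28 for mt-Nd1, 1.26 for mt-Nd2, 1.29 for mt-Cytb, 1.34 for mt-Co2 and 1.13 for mt-Co3, and without young WT library 3 it was 1.34 for mt-Atp6 and for mt-Co3.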

How the results depend on the processing

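The counts of mitochondrial genes called kept within 1.5 times their values under every alternative run: 0 for age and for young METTL3 KO throughout, 14 to 16 for METTL3 KO without an age and 10 to 14 for the interaction. The log2 difference in mitochondrial share between old and young WT, 0.34, turned to -0.207 without old WT library 3 (exact permutation p = 0.943 with it and 0.3 without). That of young METTL3 KO, -0.019, turned to 0.0139 without young METTL3 KO library 3, to 0.0106 without young WT library 2 and to 0.0943 without young WT library 3. With single libraries left out the share difference ran from -0.207 to 0.553 for age, from -0.163 to 0.0943 for young METTL3 KO and from 1.41 to 1.92 for METTL3 KO without an age. With all entries as the denominator the last was 1.31 and with other gene counts 1.78; the cause was not tested.

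As a check of pairing for the replicate block, deviations of same-numbered samples correlated between -0.385 and 0.167. With so few libraries per group this cannot decide whether the replicate number pairs samples. Blocking on that number, the share difference was 0.553 for age, -0.019 for young METTL3 KO and 1.71 for METTL3 KO without an age, and 0, 0, 14 and 14 mitochondrial genes were called for age, young METTL3 KO, METTL3 KO without an age and the interaction. Counts of mt-Atp8, mt-Nd3, mt-Nd4l and most tRNAs are low or 0 in libraries with an age, which limits the precision of their values.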
